A study of Bos taurus with 50 samples.

Results

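FDFT1 (ENSBTAG00000012432) and LSS (ENSBTAG00000018936) encode enzymes of the sterol synthesis pathway, and their mRNA abundance was followed in the endometrium of postpartum dairy cows. The 2 genes were chosen by their Ensembl identifiers among the 18830 genes of the read count table, and both were described in all 50 libraries and in each of the 6 groups formed by ovarian cyclicity status and week. Both genes passed the filter on low counts in every fit. Their symbols come from the study's tables of genes that it had itself called on part of these libraries.

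The endometrium was biopsied transcervically at week 5 and week 9 postpartum in lactating Holstein x Jersey cows in their first lactation. CycW5 cows were cycling at week 5 and had a corpus luteum and raised plasma progesterone (P4) at that biopsy (10 libraries at week 5 and 10 at week 9). NoCycW5 cows had no corpus luteum and no detectable P4 up to week 5 (12 and 11 libraries). CycNoP4 cows had been cycling by week 5 but had low P4 when that biopsy was taken (4 and 3 libraries), and the study left them out of its own analysis. Before the week 9 biopsy all cows were synchronized with GnRH, a P4 insert and prostaglandin, so that the tissue was taken on day 13 of the estrous cycle whatever the status at week 5. The biopsy holds epithelium, stroma, vessels and immune cells together. The labels do not link libraries to cows, so weeks were compared as unpaired groups although cows recur. P-values thus set each difference against the spread between libraries, with the libraries of both weeks treated as independent.

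Sterols are built from acetyl-CoA through mevalonate and farnesyl diphosphate. FDFT1, squalene synthase, joins farnesyl diphosphate into squalene, which is the first step committed to sterols. SQLE, squalene epoxidase, then oxidizes squalene, and LSS, lanosterol synthase, closes the product into lanosterol, the first sterol of the pathway. The genes of the pathway carry sterol response elements and are commonly induced together by the transcription factor SREBF2 when membranes of the endoplasmic reticulum run low in cholesterol. In the luteal phase the endometrial epithelium of ruminants accumulates lipid and secretes the histotroph that feeds the conceptus before implantation.

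The total read count per library was 21592867 to 32813237. Counts were 1339 to 9699 for FDFT1 and 628 to 3685 for LSS, so that counting error was small beside the spread between libraries. Abundance is given as CPM (counts scaled to library size) after TMM normalization over the 50 libraries, and levels of the 2 genes were not compared with each other because gene lengths were not matched. Differences were tested with edgeR's quasi-likelihood test with Benjamini-Hochberg (BH) adjustment over all genes tested, and a gene with a BH P of 0.05 or less is called a DEG. Intervals are 95% intervals of the fitted log2 fold change. Comparisons that use the same libraries, such as the week 5 NoCycW5 libraries, are not independent of each other.

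At week 5, both genes were more abundant in CycW5 than in NoCycW5 cows. FDFT1 had a lowest, median and highest value of 93.2, 213.8 and 295 CPM in the CycW5 libraries and of 54.1, 74.9 and 92.1 CPM in the NoCycW5 libraries. All 10 CycW5 libraries lay above all 12 NoCycW5 libraries, which held for 39 of 15483 genes tested (0.252%), but the gap was narrow. It was set by library 57 (93.2 CPM), and the next CycW5 library had 158.9 CPM. The mean was 204.7 ± 55.3 CPM (SD, n = 10) against 74.9 ± 12.3 CPM (SD, n = 12), a fitted log2 fold change of 1.45 (standard error 0.21, interval 1.03 to 1.87, edgeR BH P = 2.03e-06). FDFT1 ranked 128 by P among the genes tested, of which 26.6% were DEG in either direction and 15.2% were higher in the CycW5 cows. Fewer cells of a type and less RNA per cell cannot be told apart in such bulk tissue.

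LSS showed a smaller difference in the same direction. The lowest, median and highest values were 33.6, 50.1 and 76.0 CPM in the CycW5 libraries and 24.6, 29.6 and 39.6 CPM in the NoCycW5 libraries. Of the CycW5 libraries, 9 lay above every NoCycW5 library, and library 57 (33.6 CPM) lay within the NoCycW5 range. The mean of 52.2 ± 13.4 CPM (SD, n = 10) against 30.5 ± 4.74 CPM (SD, n = 12) gave a log2 fold change of 0.78 (standard error 0.14, interval 0.50 to 1.06, edgeR BH P = 6.38e-05), at rank 434 by P. Library 57 had the lowest value of its group in 8 of 13 sterol pathway enzymes, an OXTR (oxytocin receptor) level of 150.7 CPM against 5.20 to 50.4 CPM in the other 9, and the lowest mean correlation with its own group (0.941).

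**Figure D1:**
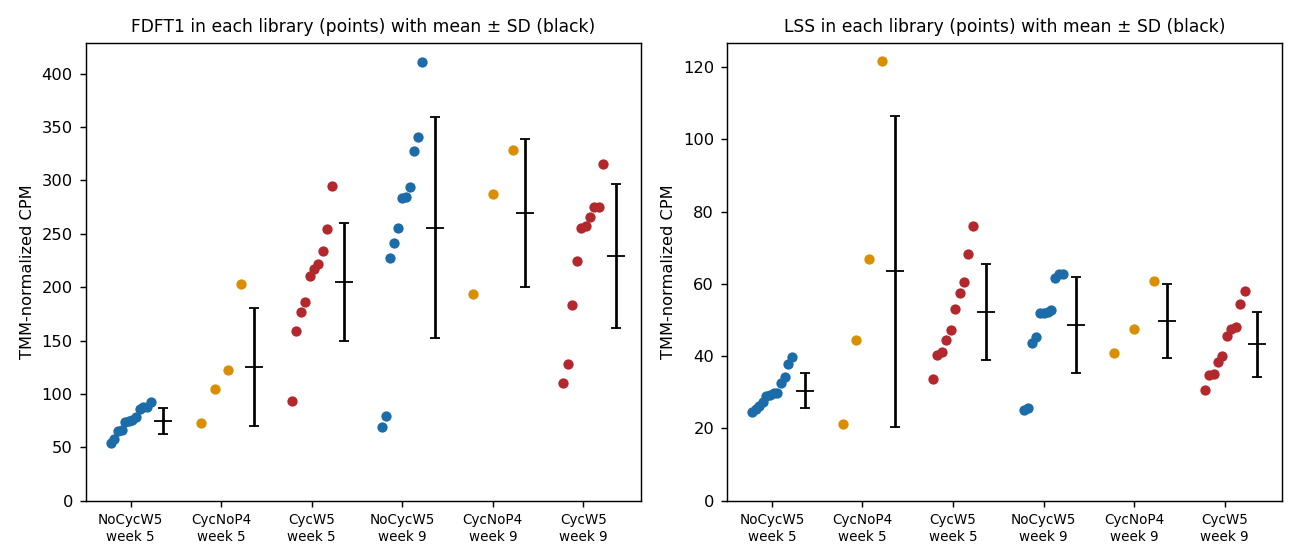
Abundance of FDFT1 (left) and LSS (right) in TMM-normalized CPM in each library (points, sorted within a group), with the mean ± SD of the group in black. At week 5 the NoCycW5 libraries reach 92.1 CPM for FDFT1 and the CycW5 libraries begin at 93.2 CPM, whereas at week 9 the groups overlap and 2 NoCycW5 libraries remain at 69.3 and 79.4 CPM.

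Between week 5 and week 9, both genes increased in the NoCycW5 cows. FDFT1 at week 9 ranged from 69.3 to 411 CPM with a median of 283.5 CPM, and 9 of 11 libraries lay above every week 5 library. The week 9 mean was 255.8 ± 103 CPM (SD, n = 11) after 74.9 CPM at week 5, a log2 fold change of 1.77 (standard error 0.21, interval 1.36 to 2.19, edgeR BH P = 1.77e-07). FDFT1 ranked 8 by P in this comparison, in which 35.7% of genes were DEG and 19.4% were DEG that were higher at week 9. For LSS the week 9 values were 25.1 to 62.8 CPM with a median of 51.9 CPM, and again 9 of 11 libraries lay above every week 5 library. LSS rose by a log2 fold change of 0.68 (standard error 0.14, interval 0.40 to 0.96, edgeR BH P = 0.000185), from 30.5 to 48.7 ± 13.2 CPM (SD, n = 11).

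The other 2 NoCycW5 libraries of week 9, 91 and 76, were at the week 5 level for both genes. FDFT1 had 69.3 CPM in library 91 and 79.4 CPM in library 76, and the next library had 227.6 CPM. LSS had 25.1 and 25.5 CPM in the same libraries, and the next had 43.7 CPM. In all 13 sterol pathway enzymes these libraries were the 2 lowest of the 11. Library 91 had 162.1 CPM of OXTR and library 76 had 93.6 CPM, both above the remaining 9 libraries (2.84 to 81.5 CPM), and their mean correlations with their own group were 0.934 and 0.928 against a group median of 0.963. When libraries 57, 76 and 91 were left out together, which was decided after their values were seen, the log2 fold change between weeks was 1.98 for FDFT1 and 0.82 for LSS, and that between the groups at week 5 was 1.54 and 0.83.

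In the CycW5 cows, no change between the weeks was detected for either gene. FDFT1 at week 9 ranged from 109.8 to 315.4 CPM with a median of 256.4 CPM, and the mean was 228.9 ± 67.5 CPM (SD, n = 10) after 204.7 CPM at week 5. The log2 fold change was 0.17 (interval -0.27 to 0.61, edgeR BH P = 0.765). LSS had 30.7, 42.7 and 58.1 CPM as its lowest, median and highest values at week 9, and a mean of 43.3 ± 8.96 CPM (SD, n = 10) after 52.2 CPM. Its log2 fold change was -0.26 (interval -0.55 to 0.04, edgeR BH P = 0.427). Without libraries 57, 76 and 91 the log2 fold change was 0.09 for FDFT1 (edgeR BH P = 0.821) and -0.31 for LSS (edgeR BH P = 0.156). Of the genes tested, 0.0452% were DEG by edgeR, which was 7 genes, while 2204 had an unadjusted P under 0.05. DESeq2 called 243 genes, limma-voom 0 and limma-voom with quality weights 3181, so that the count of genes that changed in these cows depended on the tool. Library 89 had the lowest value of both genes at week 9 (109.8 CPM of FDFT1 and 30.7 CPM of LSS) and the lowest mean correlation with its group among all 50 libraries (0.885). Library 87, next for FDFT1 (128.1 CPM), had 47.6 CPM of LSS, above the group median, and the highest OXTR level of its group (178 CPM).

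At week 9 the values of CycW5 and NoCycW5 cows overlapped in both genes. The log2 fold change of CycW5 against NoCycW5 cows was -0.15 for FDFT1 (interval -0.58 to 0.28, edgeR BH P = 0.907) and -0.16 for LSS (interval -0.45 to 0.13, edgeR BH P = 0.843). The interval for FDFT1 does not reach the difference of week 5. Leaving out 1 library gave -0.25 to -0.07 for FDFT1 and -0.22 to -0.12 for LSS, with the lowest values without library 91 or 76 of the NoCycW5 cows. When libraries 57, 76 and 91 were left out together, the values were -0.36 for FDFT1 (standard error 0.15, edgeR BH P = 0.328) and -0.30 for LSS (standard error 0.12, edgeR BH P = 0.317), farther below 0 but not DEG. Of all genes tested, 0.00646% were DEG by edgeR, which was 1 gene, while 992 had an unadjusted P under 0.05, DESeq2 called 12 genes and limma-voom 0.

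The week change itself differed between the groups. It was larger in the NoCycW5 than in the CycW5 cows by 1.60 on the log2 scale for FDFT1 (standard error 0.30, interval 1.003 to 2.20, edgeR BH P = 0.00116) and by 0.94 for LSS (standard error 0.20, interval 0.53 to 1.34, edgeR BH P = 0.00366). FDFT1 ranked 40 and LSS 137 by P, and of all genes tested 7.82% were DEG for this difference, 4.99% with the larger change in the NoCycW5 cows. Leaving out any of the 43 libraries kept both genes as DEG, with values of 1.52 to 1.70 for FDFT1 and 0.87 to 1.003 for LSS, and the values were 1.90 and 1.14 without libraries 57, 76 and 91.

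**Figure D2:**
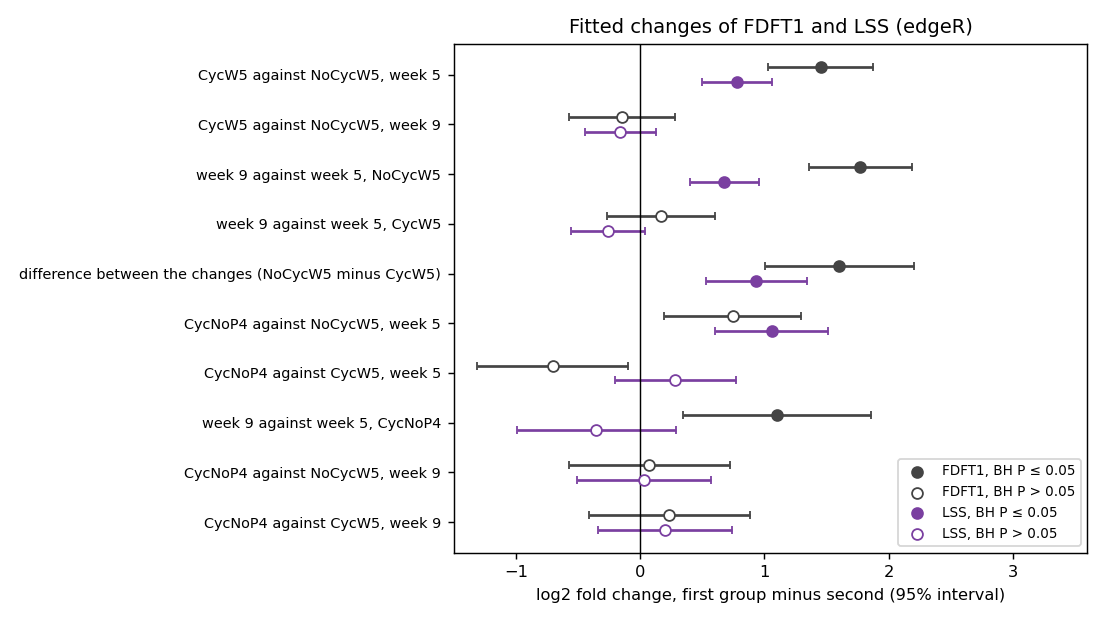
Fitted log2 fold changes of FDFT1 and LSS in the 10 comparisons, the first group minus the second, with 95% intervals (filled points, BH P of 0.05 or less). The values of both genes are above 0 for CycW5 against NoCycW5 cows at week 5 (1.45 and 0.78) and near 0 at week 9. The signs of the genes are opposite in CycNoP4 against CycW5 cows at week 5 (-0.70 and 0.28) and between weeks in the CycNoP4 cows (1.10 and -0.35).

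In the CycNoP4 cows at week 5, the 2 genes stood differently relative to the other groups. FDFT1 had 72.5, 105.04, 122.4 and 202.6 CPM in libraries 64, 51, 58 and 56. Of these, 3 were above every NoCycW5 library, and all 4 were below the CycW5 median of 213.8 CPM. LSS had 21.2, 66.8, 44.4 and 121.7 CPM in the same libraries. Library 64 was thus below every NoCycW5 library and library 56 above every CycW5 library, which was the highest LSS value of the 50 libraries.

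Against the NoCycW5 cows at week 5, LSS was higher in the CycNoP4 cows by 1.06 on the log2 scale (standard error 0.23, interval 0.60 to 1.51, edgeR BH P = 0.0023). FDFT1 had a log2 fold change of 0.75 (standard error 0.27, interval 0.19 to 1.30) and was just outside the threshold (edgeR BH P = 0.0536). Of the 16120 genes tested here, 16.4% were DEG and 9.92% were DEG that were higher in the CycNoP4 cows. The LSS call rested on library 56, since without it the log2 fold change was 0.53 (edgeR BH P = 0.148). FDFT1 passed the threshold in 5 of 7 alternative analyses, with BH P between 0.0150 and 0.127 over the 7.

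Neither gene passed the test between CycNoP4 and CycW5 cows at week 5, where 17.9% of genes did. FDFT1 had a log2 fold change of -0.70 (interval -1.32 to -0.09, edgeR BH P = 0.0956) and LSS of 0.28 (interval -0.20 to 0.77, edgeR BH P = 0.426). Without library 56 these values were -1.03 (edgeR BH P = 0.043) for FDFT1, which then passed, and -0.24 for LSS.

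At week 9 the CycNoP4 libraries 88, 94 and 79 had 193.2, 286.9 and 328.6 CPM of FDFT1 and 40.8, 60.9 and 47.5 CPM of LSS, within the range of all other week 9 libraries for FDFT1 and for LSS. The log2 fold change against the NoCycW5 cows was 0.08 for FDFT1 (interval -0.57 to 0.72, edgeR BH P = 0.97) and 0.03 for LSS (interval -0.51 to 0.57, edgeR BH P = 0.988). Against the CycW5 cows it was 0.24 (interval -0.41 to 0.88, edgeR BH P = 0.935) and 0.20 (interval -0.34 to 0.74, edgeR BH P = 0.935). In each of these comparisons 0% of genes were DEG by edgeR, although 782 and 1257 had an unadjusted P under 0.05 and DESeq2 called 13 and 19 genes.

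In the CycNoP4 cows FDFT1 rose from week 5 to week 9 by 1.10 on the log2 scale (standard error 0.37, interval 0.35 to 1.86, edgeR BH P = 0.0337), and all 3 week 9 libraries lay above 3 of the 4 week 5 libraries. LSS had a log2 fold change of -0.35 (interval -0.99 to 0.29, edgeR BH P = 0.44). In this comparison 19.6% of genes tested were DEG, and 9.74% were DEG that were higher at week 9. The FDFT1 call held in 2 of the 7 analyses that left out 1 library, with log2 fold changes of 0.91 to 1.43; it was lost without library 51, 58 or 64 of week 5 and without library 79 or 94 of week 9 (BH P 0.0649 to 0.138). Without library 56 the LSS value turned to 0.17.

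The unequal shifts of the 2 genes were compared directly as the log2 ratio of FDFT1 to LSS within each library, which needs no normalization between libraries. At week 5 the ratio was 1.95 ± 0.39 (SD, n = 10) in the CycW5 cows and 1.29 ± 0.32 (SD, n = 12) in the NoCycW5 cows. All 10 CycW5 libraries were above the NoCycW5 median and 5 were above every NoCycW5 library. The difference was 0.66 (standard error 0.15, 2-sided permutation P = 0.00058, BH P = 0.00174 over the 6 comparisons made). FDFT1 thus differed more between these groups than LSS did. In the NoCycW5 cows the ratio increased by 0.99 to 2.28 ± 0.44 (SD, n = 11) at week 9 (standard error 0.16, permutation P = 4e-05, BH P = 0.00024). In the CycW5 cows it was 2.36 ± 0.45 (SD, n = 10) at week 9, a difference of 0.40 from week 5 that did not pass after adjustment (permutation P = 0.0464, BH P = 0.0695). Between the groups at week 9 the ratio differed by 0.07 (permutation P = 0.712, BH P = 0.712).

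The CycNoP4 libraries of week 5 included the 2 lowest ratios of all 50, 0.65 in library 51 and 0.74 in library 56, next to 1.46 in library 58 and 1.77 in library 64. Their mean of 1.15 ± 0.55 (SD, n = 4) was lower than that of the CycW5 cows, with a difference of -0.80 (exact permutation P = 0.024, BH P = 0.048). Libraries 58 and 64 lay within the range of the CycW5 libraries of week 5 (1.37 to 2.43). Against the NoCycW5 cows the difference was -0.14 (exact permutation P = 0.538, BH P = 0.646). In the CycNoP4 cows at week 9 the ratios were 2.24, 2.24 and 2.79, above all 4 of week 5.

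**Figure D3:**
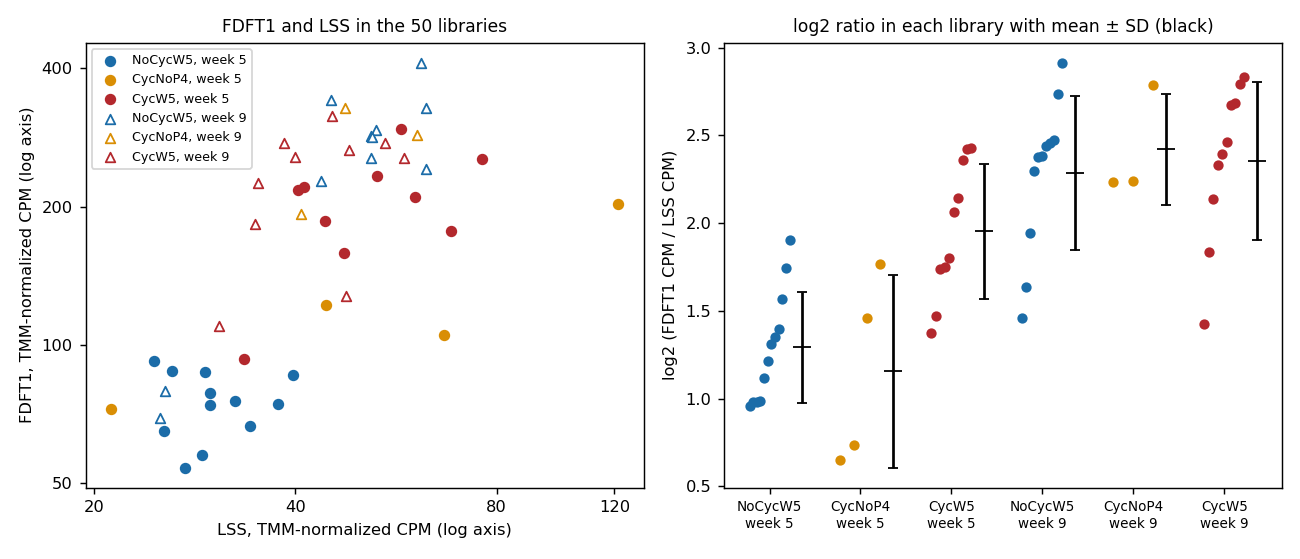
Left, FDFT1 against LSS in TMM-normalized CPM in the 50 libraries, both axes logarithmic (filled circles week 5, open triangles week 9). Right, the log2 ratio of FDFT1 to LSS in each library with the mean ± SD of the group in black; the ratio averages 1.29 in NoCycW5 and 1.95 in CycW5 cows at week 5 and 2.28 and 2.36 at week 9.

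In CycW5 against NoCycW5 cows at week 5, the other enzymes of the pathway with an identifier moved in the same direction as FDFT1 and LSS. They did so too between weeks in the NoCycW5 cows. Of 21 listed enzymes from the first condensations to cholesterol, 13 had an identifier, all through the study's own lists of called genes. Neither their calls nor their direction is therefore independent evidence. At week 5 all 13 were DEG and higher in the CycW5 than in the NoCycW5 cows, beside 15.2% of all genes tested. Their median log2 fold change was 1.03 against -0.02 over all genes tested. FDFT1 (1.45) was exceeded by MSMO1 (1.49) and CYP51A1 (1.47), which remove methyl groups from lanosterol and its products, and LSS (0.78) had the smallest value. Upstream of FDFT1, the higher enzymes included HMGCS1 (0.96), PMVK (1.03), MVD (0.84) and IDI1 (1.18), which makes the isomer needed for farnesyl diphosphate. SQLE, between FDFT1 and LSS, had 1.06. Downstream, the values were 0.94 for the sterol reductase TM7SF2, 0.86 for NSDHL and 0.85 for DHCR7, a reductase that acts at the end of the pathway.

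From week 5 to week 9 in the NoCycW5 cows all 13 enzymes were again DEG and higher, beside 19.4% of all genes tested. Their median log2 fold change was 1.53 against -0.01 over all genes. Larger values than that of FDFT1 (1.77) were those of CYP51A1 (2.18), MSMO1 (1.92) and IDI1 (1.80), and LSS (0.68) was again the smallest. Other values were 1.60 for HMGCS1, 1.57 for SQLE, 1.26 for PMVK, 0.99 for NSDHL, 0.98 for DHCR7, 0.90 for TM7SF2 and 0.84 for MVD. All 13 were also DEG when the week changes of the groups were compared, with the larger change in the NoCycW5 cows. This was so for 4.99% of all genes tested, and the median was 1.26 against -0.04 over all genes. In CycW5 against NoCycW5 cows at week 9 and in CycW5 cows between weeks, 0 of 13 were DEG by edgeR and 0 had an unadjusted P under 0.05, with medians of -0.16 and 0.10. The shares of DEG over all genes tested were 0.00646% and 0.0452%. The other tools called 0 of 13 at week 9 and 0 or 1 in the CycW5 cows between weeks.

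In CycNoP4 against NoCycW5 cows at week 5, 10 of 13 enzymes were DEG and higher, beside 9.92% of all genes tested (median 1.16 against -0.01 over all genes). FDFT1 (0.75), PMVK (0.64, BH P = 0.0963) and TM7SF2 (0.21, BH P = 0.604) were the 3 that did not pass. The enzymes on either side of FDFT1 in the pathway had 1.19 (IDI1) and 1.94 (SQLE), and HMGCS1 had 1.96. With limma-voom 5 of 13 were DEG. Against the CycW5 cows HMGCS1 alone passed (1.002, BH P = 0.0404), beside 17.9% of all genes that were DEG in either direction. The lowest values were those of TM7SF2 (-0.72) and FDFT1 (-0.70). Between weeks in the CycNoP4 cows, FDFT1 (1.10) was the only one of the 13 that passed, beside 9.74% of all genes that were DEG and higher. Near it were MSMO1 (1.05, BH P = 0.118) and TM7SF2 (0.97, BH P = 0.0506), and 9 of 13 enzymes had values above 0. Library 56 was the highest of the 4 CycNoP4 libraries in 12 of 13 enzymes and library 64 the lowest in 12.

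**Figure D4:**
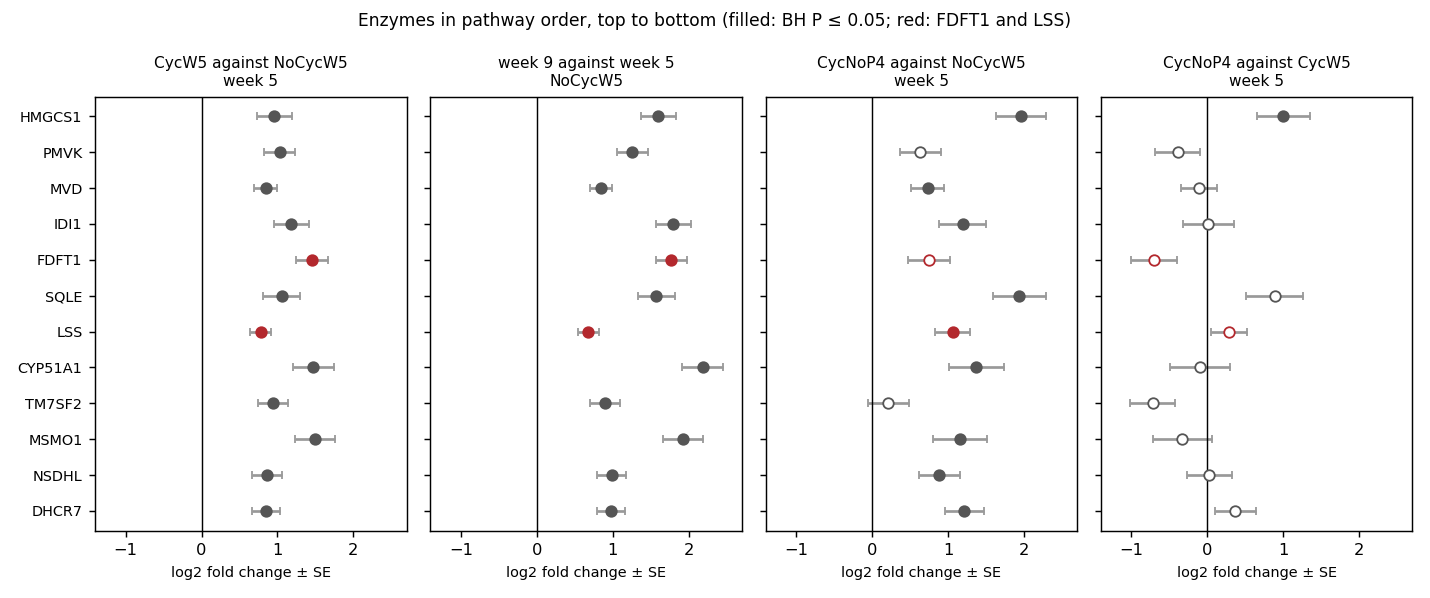
Log2 fold changes ± standard error of 12 sterol pathway enzymes in pathway order, in 4 comparisons (filled points, BH P of 0.05 or less; red, FDFT1 and LSS). All 12 are filled and above 0 in the first 2 panels, 9 of 12 in the third, and HMGCS1 alone in the fourth, where FDFT1 and TM7SF2 lie farthest below 0.

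Genes around the pathway were described by lists of the same kind, of which only the members with an identifier could be read. Of all genes tested, 15.2% were DEG and higher in the CycW5 cows at week 5 and 19.4% were DEG that rose between weeks in the NoCycW5 cows, and the counts of these short lists stand beside those shares. INSIG1, which retains SREBF2 in the endoplasmic reticulum when sterols are plentiful, was higher in the CycW5 cows at week 5 (1.19) and rose in the NoCycW5 cows (1.42). Of 4 uptake and transport genes tested, all 4 were higher at week 5 and rose in the NoCycW5 cows, among them NPC1, which moves cholesterol out of lysosomes (0.94 and 1.68). Of 3 genes of efflux and oxidation, 2 did so, the cholesterol exporter ABCG1 (1.73 and 1.47) and the side chain hydroxylase CYP27A1 (1.17 and 1.46). In the CycNoP4 cows at week 5, INSIG1 (1.54) was a DEG against the NoCycW5 cows, and ABCG1 (0.17) and CYP27A1 (0.13) were not; against the CycW5 cows ABCG1 was lower (-1.56, BH P = 0.0038), as was CYP27A1 (-1.03, BH P = 0.0333). PDSS2, which draws on the same precursors for coenzyme Q, had 0.01 at week 5 and -0.12 in the NoCycW5 cows and was no DEG. Of 4 genes of fatty acid synthesis tested, 3 were higher at week 5 and all 4 rose in the NoCycW5 cows, beside 15.2% and 19.4% of all genes. No gene of steroid hormone synthesis on the list had an identifier.

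Markers of epithelium were higher along with FDFT1 and LSS in CycW5 against NoCycW5 cows at week 5 and between weeks in the NoCycW5 cows. Identifiers came almost only from the study's tables of genes it had called, so neither the calls nor the direction of the markers is independent evidence. Of 8 listed epithelial markers, EPCAM, KRT8 and CLDN4 had an identifier, and none was at 0 in any group. All 3 were DEG and higher in the CycW5 cows at week 5 (median log2 fold change 0.78), beside 15.2% of all genes tested. They also rose in the NoCycW5 cows (1.09), beside 19.4% of all genes tested. Their summed level was 225.4 to 449 CPM in the NoCycW5 and 322.9 to 1177 CPM in the CycW5 libraries of week 5, 461.2 to 882.4 CPM in the CycNoP4 libraries of week 5, and 365.3 to 1195, 273.1 to 974.2 and 467.9 to 983 CPM in the NoCycW5, CycW5 and CycNoP4 libraries of week 9. The level was 882.4, 695.0, 461.2 and 495.9 CPM in CycNoP4 libraries 51, 56, 58 and 64 of week 5. In CycNoP4 against NoCycW5 cows at week 5, EPCAM (0.87) and KRT8 (0.92) were DEG, beside 9.92% of all genes that were DEG and higher. CLDN4 (1.26, edgeR BH P = 0.134) was not. Endothelial VWF (-0.80) and CDH5 (-0.43) were lower in the CycW5 cows at week 5, and the stromal marker PDGFRA, the only one of 8 with an identifier, had -0.07 (BH P = 0.789). APOA1, a liver gene, had a mean of 42.1 CPM in the CycW5 and 44.5 CPM in the NoCycW5 cows at week 5, and INHA, of steroid-making ovarian cells, had 1.38 and 1.30 CPM. Between weeks these markers were not all level. In the NoCycW5 cows APOA1 rose (log2 fold change 1.06, BH P = 0.0444) to a mean of 92.8 CPM, VWF fell (-0.62, BH P = 0.00968), and INHA had 0.54 (BH P = 0.0587). In the CycNoP4 cows INHA rose between weeks (1.66, BH P = 0.00953), as FDFT1 did, and APOA1 had 0.88 (BH P = 0.396). There EPCAM had 0.15, KRT8 -0.36 and CLDN4 0.88, and 0 of 3 were DEG. In CycNoP4 against CycW5 cows at week 5, FDFT1 had -0.70, EPCAM 0.17, KRT8 0.14 and CLDN4 -0.67, and again 0 of 3 epithelial markers were DEG. The part of these markers in the differences of FDFT1 and LSS was not tested.

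Within groups, FDFT1 and LSS were related to each other and to OXTR, SFRP2, and the epithelial and stromal levels on the log2 CPM scale, 36 relations in all over the CycW5 and NoCycW5 groups. OXTR is suppressed by P4 in the luteal phase, and SFRP2 encodes a secreted modulator of WNT signaling that was lower in the CycW5 cows at week 5 (log2 fold change -2.10, BH P = 9.75e-07). In the NoCycW5 cows at week 9, libraries 91 and 76 stood apart in both genes, so no relation is given over all 11 libraries and those below are over the other 9. There, FDFT1 was lower where OXTR was higher (Pearson r = -0.81, exact permutation P = 0.00273, and Spearman rho = -0.87, exact permutation P = 0.00451) and higher where the epithelial level was higher (r = 0.81, exact permutation P = 0.00365, and rho = 0.87, exact permutation P = 0.00451). Adjusted over the 36 relations computed with 2 libraries left out, both had BH P = 0.0657. LSS showed neither relation in these 9 libraries, with r = 0.07 for OXTR (exact permutation P = 0.88) and r = 0.17 for the epithelial level (exact permutation P = 0.672). FDFT1 and LSS were themselves related by r = 0.34 in them (exact permutation P = 0.379). In the CycW5 cows at week 9, FDFT1 and the epithelial level had r = 0.74 (permutation P = 0.0404, BH P = 0.242). Without libraries 89 and 87, r was -0.16. At week 5, r was 0.36 in the CycW5 cows and 0.27 in the NoCycW5 cows (permutation BH P = 0.483 and 0.578). With 2 libraries left out, r was 0.29 and 0.71 in these groups. FDFT1 and OXTR had r = -0.42 in the CycW5 cows at week 9 and -0.30 in the NoCycW5 cows at week 5. The permutation BH P values were 0.466 and 0.542.

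In the CycW5 cows at week 5, FDFT1 was also lower where OXTR was higher (r = -0.80, permutation P = 0.00516, BH P = 0.0585, and rho = -0.73, permutation P = 0.0203), but without libraries 67 and 57, farthest from the median OXTR level, r was -0.31 and the relation rested on these libraries. FDFT1 and SFRP2 had r = -0.49 (permutation P = 0.171, BH P = 0.411) and rho = -0.75 (permutation P = 0.0177, BH P = 0.183) in this group. Without libraries 52 and 66, farthest from the median SFRP2 level, r was -0.80 (exact permutation P = 0.0123, BH P = 0.147). In the same group FDFT1 and LSS had r = 0.58 (permutation P = 0.0644, BH P = 0.258) and rho = 0.39 (permutation P = 0.261), and r = 0.21 without libraries 57 and 67. In the NoCycW5 cows at week 5, FDFT1 varied little and bore no detectable relation to LSS (r = 0.06, permutation P = 0.851, BH P = 0.851, and rho = -0.04, permutation P = 0.908), with r = -0.17 without libraries 61 and 69. In the CycW5 cows at week 9 the value was 0.48 (permutation P = 0.171, BH P = 0.411), with rho = 0.42 (permutation P = 0.232) and r = 0.55 without libraries 89 and 87. The CycNoP4 libraries, too few for a correlation, had high OXTR at week 5 (119.9 to 276.6 CPM), and library 56, with the highest FDFT1 and LSS of the 4, also had the highest OXTR.

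**Figure D5:**
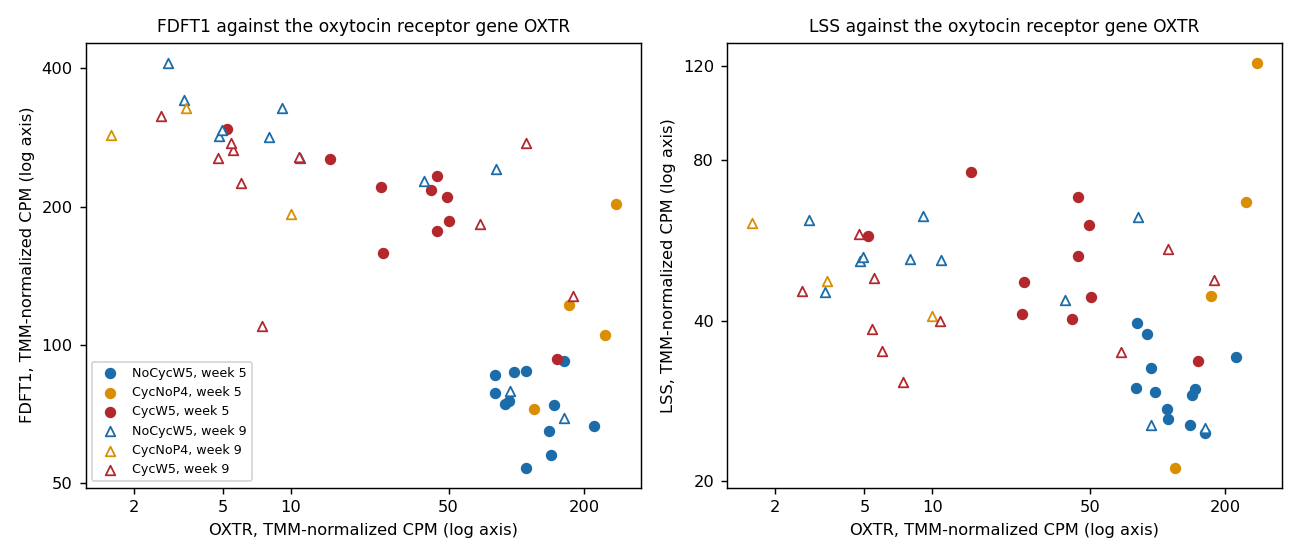
FDFT1 (left) and LSS (right) against OXTR in TMM-normalized CPM in the 50 libraries, all axes logarithmic (filled circles week 5, open triangles week 9; colors mark the groups). NoCycW5 libraries 91 and 76 of week 9 lie among the week 5 NoCycW5 libraries in both panels, and CycNoP4 library 56 has 276.6 CPM of OXTR with 202.6 CPM of FDFT1 and 121.7 CPM of LSS.

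No gene was among the 5 whose log2 CPM most closely followed both FDFT1 and LSS. Among the 16119 other genes tested over the 50 libraries, of which 2273 had a symbol, the 5 closest to FDFT1 with a symbol were C14orf1 (r = 0.944), the homolog of a yeast protein that tethers sterol enzymes (ERG28), ELOVL6 (0.941), an elongase of fatty acids, HIBCH (0.936), a mitochondrial enzyme of valine breakdown, SLC23A1 (0.930), a vitamin C transporter, and the kinase scaffold KSR2 (0.930). Some sterol enzymes ranked close behind for FDFT1 among all 16119 genes, with MSMO1 at 10 (0.924), IDI1 at 17 (0.918) and CYP51A1 at 38 (0.905). The other enzymes ranked from 135 (PMVK) to 817 (SQLE), and LSS ranked 984 (r = 0.710). Among the 5 closest to LSS were MVD (0.871), NSDHL (0.867), DHCR7 (0.850) and INSIG1 (0.847), genes of sterol synthesis or sensing, and FDFT1 ranked 90 for LSS. With the mean of each group subtracted, C14orf1 (0.888), ELOVL6 (0.870) and HIBCH (0.869) still led for FDFT1, followed by TTC39A (0.866) and the nucleoside transporter SLC29A2 (0.861). IDI1 ranked 7 there for FDFT1 (0.857) and MSMO1 ranked 11 (0.843), while LSS ranked 339 and SQLE 817. The 5 closest to LSS then included NSDHL (0.849), MVD (0.835), IDI1 (0.835) and HMGCS1 (0.821). These correlations are descriptions over libraries that share groups and cows, and carry no test.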

How the data were processed

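Stranded mRNA from each biopsy was sequenced in single-end mode. By the paper's account, trimmed reads were aligned with Hisat2 to the bovine genome (UMD3.1) and assigned to Ensembl gene models with FeatureCounts. The sample records name HISAT2, StringTie and edgeR but not FeatureCounts, so which tool made the counts is not known here. The table that the authors deposited holds raw read counts. Tool versions and the strand setting of the counting are not given in the sources used here. Groups came from the sample labels.

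FDFT1 and LSS, the gene lists and the tests were chosen with earlier results of these data known. Genes named are FDFT1 and LSS, members of those lists, OXTR, ESR1 and SFRP2 as the study's reference genes, and the 5 genes with a symbol most correlated with each; some genes that this rule names, though included in the counts and medians of the lists, are not reported here. At week 5 the log2 fold change of ESR1 in CycW5 against NoCycW5 cows was -0.30 (edgeR BH P = 0.362). Between weeks ESR1 fell in the NoCycW5 cows (-0.67, edgeR BH P = 0.022) and in the CycNoP4 cows (-1.16, edgeR BH P = 0.0435). In the CycW5 cows it had -0.50 (edgeR BH P = 0.346). The relation of ESR1 to FDFT1 and LSS was not tested. Symbols came from the study's supplementary tables (2324 genes) or, through RefSeq accessions, from a gene table (22 genes).

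Counts were filtered with filterByExpr, normalized by TMM and fitted with robust quasi-likelihood dispersions (R 4.3.3, edgeR 4.0.16): CycW5 and NoCycW5 libraries as 4 group means (15483 genes), and all 50 libraries as 6 group means for CycNoP4 comparisons (16120 genes). The code was tested on simulated counts. Ratios and correlations used log2 CPM with a prior count of 2 and 2-sided permutation tests (scipy 1.17.1), exact where a group had under 10 libraries and otherwise with 100000 resamples. Alternatives were DESeq2 1.42.0 (its test, and its size factors in edgeR), limma-voom 3.58.1 without and with quality weights, dropping the filter, requiring 1 CPM in 10 or more libraries, other sets of libraries in the fit, CycNoP4 counted as CycW5, the ratio of raw counts, and leaving out each library. Of the marker lists, those of smooth muscle, leukocytes and erythrocytes had 0 members with an identifier. Promoter motifs and gene positions were not analysed here.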

Additional observations from a re-analysis of the deposited data

Results flagged for a closer look

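The change of FDFT1 between week 5 and week 9 differed between groups of cows by a test of that difference. It was larger in the NoCycW5 than in the CycW5 cows by 1.60 on the log2 scale (edgeR BH P = 0.00116), with changes of 1.77 and 0.17 in the respective groups. The change of LSS differed in the same way by 0.94 (edgeR BH P = 0.00366), with changes of 0.68 and -0.26. No library of the groups of 10 or 4 stood beyond Dixon's limit for FDFT1, LSS or their ratio; NoCycW5 groups of 11 and 12 and the CycNoP4 group of 3 were not examined by it, so that libraries 91 and 76 were outside its reach.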

How the results depend on the processing

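For the comparisons of CycW5 and NoCycW5 cows and of their weeks, FDFT1 and LSS kept their direction and their side of the threshold under all alternatives and with each library left out. The 13 enzyme calls at week 5 and in the NoCycW5 cows between weeks also held under each alternative, and in the CycW5 cows between weeks limma-voom with quality weights called 1 enzyme in place of 0. The CycNoP4 comparisons were less stable. Against the NoCycW5 cows at week 5, FDFT1 passed the threshold with DESeq2's size factors (0.77), DESeq2's test (0.77), limma-voom with quality weights (0.93), the stricter filter (0.77) and only the compared groups in the fit (0.75), and leaving out 1 library gave 0.42 to 0.94; the range for LSS was 0.53 to 1.35. Limma-voom called 5 enzymes there in place of 10. Against the CycW5 cows at week 5, leaving out 1 library gave -1.03 to -0.51 for FDFT1 and -0.24 to 0.57 for LSS, and limma-voom and the fit of only the compared groups called 0 enzymes in place of 1. Between weeks, FDFT1 no longer passed with only the compared groups in the fit (1.08), and leaving out 1 library gave 0.91 to 1.43 for FDFT1 and -0.64 to 0.17 for LSS. Against the NoCycW5 cows at week 9, values near 0 turned sign with quality weights (-0.15 for FDFT1 and -0.093 for LSS), and leaving out 1 library gave -0.074 to 0.27 and -0.14 to 0.16. The cause of these shifts was not tested, other than that fewer libraries entered some fits. Over all genes, the difference between the week changes was called for 1210 genes by edgeR, 1848 by DESeq2, 621 by limma-voom and 3161 with quality weights. The ratios of raw counts and correlations with DESeq2's size factors gave no other call or direction. The ratio tests were not repeated with single libraries left out. No paired analysis was possible because the labels do not link libraries to cows; libraries of week 5 and week 9 alternate in much of the count table, but the order of columns was not used to pair them. With 3 or 4 CycNoP4 libraries, the intervals above limit what could be detected.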
